A study of Mus musculus with 6 samples.

Results

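The 48 genes described here encode chemokines, their signalling receptors and the atypical receptors that scavenge or present them. They were taken by symbol from the 45706 genes of a liver count table, and all 48 were found there. The list holds 30 ligands, 13 signalling receptors and 5 atypical receptors. The study sequenced poly(A) RNA of mouse liver in 6 libraries, of which 3 carry the genotype label wild type (here WT 1 to WT 3) and the others are labelled as knockouts of Entpd8 (here KO 1 to KO 3). The product of this gene, NTPDase8, is an ectoenzyme that breaks down extracellular nucleotides, and the series asks how it bears on ischemia of the liver. All mice were kept under specific pathogen-free conditions. The labels used here do not say whether these livers had been made ischemic, how the knockout was made, which strain, sex or age the mice had, or whether each library stands for its own animal. The p-values therefore measure only the spread between these libraries, which may be technical.

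Chemokines are small secreted proteins, held on cell surfaces by glycosaminoglycans, that guide leukocytes through G protein-coupled receptors. In liver they are made by hepatocytes, Kupffer cells, stellate cells, endothelium and bile duct cells, and many are switched on by NF-kappa-B or interferons within a short time of injury. Ligands of Ccr2 draw monocytes, ligands of Cxcr2 draw neutrophils and ligands of Cxcr3 draw activated T cells and NK cells. Atypical receptors bind chemokines without the usual G protein signal and remove or display them.

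Depth ran from 32768774 to 39929978 counts per wild-type library and from 40800058 to 46473531 per knockout library. Raw counts given below are not scaled for this difference. The targeted gene Entpd8 kept 15, 29 and 52 counts in KO 1 to KO 3, where WT 1 to WT 3 had 1416, 876 and 2034 (log2 fold change -5.72, adjusted p = 0.00151 in edgeR). The 5 hepatocyte markers tested (among them Alb and Apoa1) summed to 51830 to 76220 CPM in every library, where CPM is the count relative to a library size scaled by TMM. Mitochondrially encoded transcripts took 6.52% to 8.34% of wild-type and 10.1% to 11.7% of knockout counts. Red cell transcripts also differed, since all 5 red cell markers were higher in the knockout libraries and their sum was 368 to 546 CPM in wild type and 1178 to 1546 CPM in knockout. In bulk tissue a change in the number of cells of a type and a change in RNA per cell cannot be told apart.

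Of the 48 genes, 34 had enough counts to be tested and 14 did not. Among the 34, 11 were higher in knockout livers and 0 were lower at an adjusted p under 0.05 in edgeR. In the same fit 9.8% of all 14069 genes tested were called higher, 10.6% lower and 20.4% in either direction. The called members were the ligands Ccl2, Ccl3, Ccl4, Ccl7, Ccl28, Cxcl2, Cxcl5, Cxcl10 and Cxcl11 and the atypical receptors Ackr2 and Ccrl2. None of the 6 signalling receptors tested passed in edgeR, where 3 had an unadjusted p under 0.05, and DESeq2 called 2. The 0 lower members were also 0 at an unadjusted p under 0.05 and 0 in DESeq2. The median log2 fold change was 1.02 over the 34 members and -0.02 over all genes tested. For 18 of the 34 members every knockout library lay above every wild-type library, which held for 18.7% of all genes tested, and for 0 members every knockout library lay below, against 22% of all genes. DESeq2 called 17 members, when it called 1869 genes higher in all. Without KO 1 edgeR called 7 members, when it called 385 genes higher in all.

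**Figure D1:**
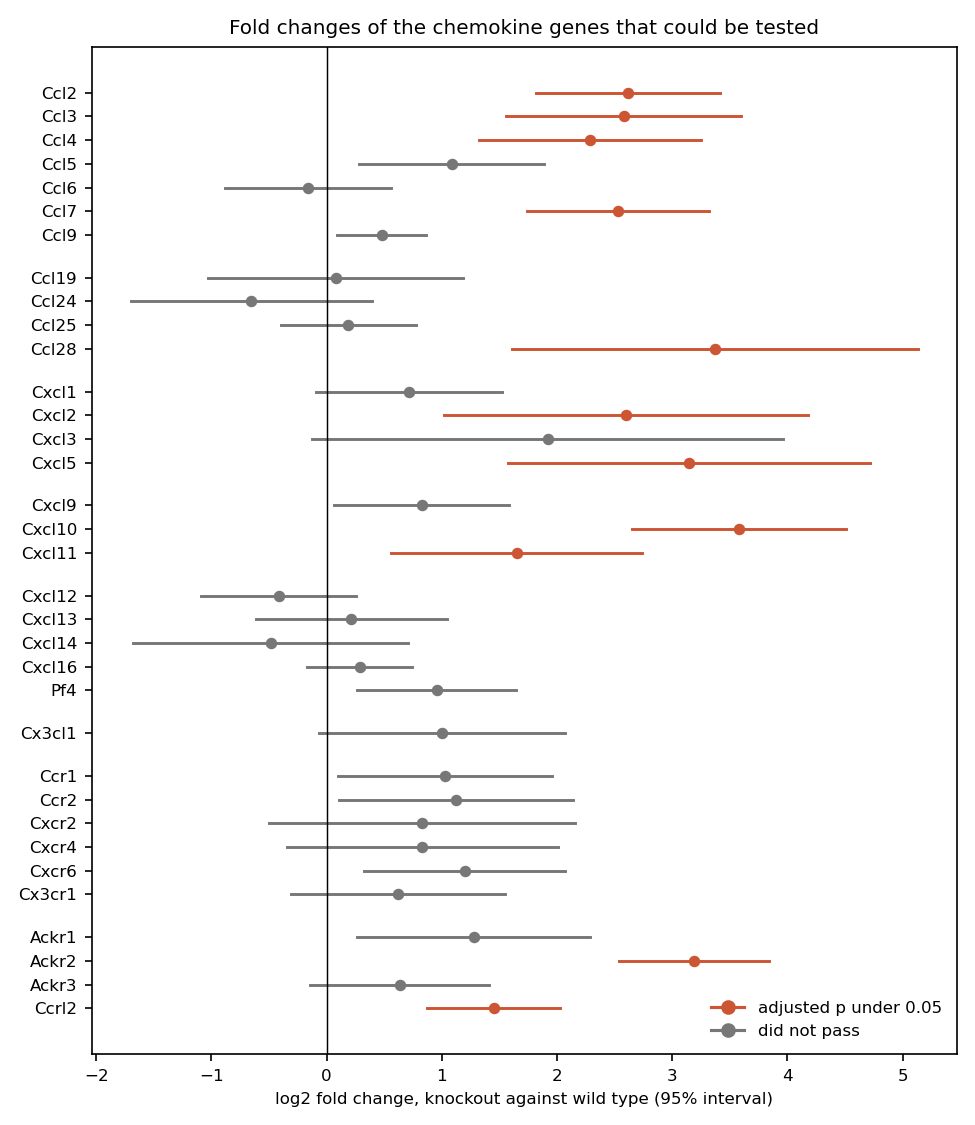
Log2 fold change of the 34 members that could be tested (points) with 95% intervals (lines), grouped by role from inflammatory CC ligands at the top to atypical receptors at the bottom. The 11 genes in red passed at an adjusted p under 0.05 and all lie to the right of 0, while 4 of the 23 in grey have an estimate below 0.

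The inflammatory CC ligands included 4 of the 11 called genes. Ccl2, the main attractant of Ccr2-bearing monocytes, measured 3.91, 2.92 and 2.44 CPM in WT 1 to WT 3 and 15.1, 12.8 and 28.9 CPM in KO 1 to KO 3. The lowest knockout library was above the highest wild-type library, and KO 3 stood above the other knockout libraries. The log2 fold change of Ccl2, with its standard error, was 2.62 ± 0.34 (adjusted p = 0.00477). Ccl7, another Ccr2 ligand, followed the same order, with 1.63, 1.23 and 0.777 CPM in wild type and 6.87, 4.79 and 9.30 CPM in knockout (log2 fold change 2.53 ± 0.34, adjusted p = 0.00470). Both genes lie in a row of CC ligands on the plus strand of chromosome 11 in GRCm38, Ccl2 at chr11:82035571-82037453 and Ccl7 at chr11:82045712-82047525.

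Ccl3 and Ccl4, ligands made by activated macrophages and lymphocytes, rose from lower levels. Ccl3 measured 0.331, 0.179 and 0.111 CPM in wild-type and 1.02, 1.17 and 1.56 CPM in knockout libraries (log2 fold change 2.58 ± 0.44, adjusted p = 0.00935). Ccl4 measured 0.579, 0.231 and 0.222 CPM in wild-type and 1.53, 1.89 and 1.64 CPM in knockout libraries (log2 fold change 2.29 ± 0.42, adjusted p = 0.0110). The groups did not overlap for either gene, although wild-type counts of Ccl3 were only 4 to 12. These 2 genes sit beside each other on opposite strands of chromosome 11, from 83647844 to 83664683.

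The other members of that second chromosome 11 group, Ccl5, Ccl6 and Ccl9, did not pass. Ccl5, which draws T cells, measured 0.909, 1.18 and 0.500 CPM in wild type and 1.71, 1.72 and 2.08 CPM in knockout, with a log2 fold change of 1.08 and a 95% interval of 0.29 to 1.88 (adjusted p = 0.0608). It passed in DESeq2, in limma voom and without WT 2. Ccl6 and Ccl9, ligands of Ccr1 found in myeloid cells, were among the 4 highest ligands per kilobase in wild type. Ccl9 measured 39.5, 35.3 and 39.4 CPM in wild type and 54.4, 64.3 and 40.6 CPM in knockout (log2 fold change 0.48, interval 0.09 to 0.87, adjusted p = 0.0798). The groups of Ccl9 did not overlap, but KO 3 was barely above WT 1, and the gene passed without KO 3. Ccl6 measured 36.2, 20.8 and 14.1 CPM in wild type and 21.7, 21.9 and 20.1 CPM in knockout (log2 fold change -0.16, interval -0.88 to 0.56). The knockout libraries of Ccl6 lay within the wild-type range, and without WT 1 the estimate turned to 0.28.

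Among the remaining CC ligands only Ccl28 passed. Ccl28 is made by mucosal and ductal epithelium and attracts IgA-producing plasma cells. Its counts were 1, 0 and 6 in wild-type and 24, 22 and 42 in knockout libraries, or 0.0647 ± 0.0893 CPM against 0.681 ± 0.178 CPM (SD, n = 3 per group). The log2 fold change was 3.37 ± 0.77 (adjusted p = 0.0213), and the call was lost when WT 1, KO 1 or KO 3 was left out (highest adjusted p 0.0690). Without each library in turn the log2 fold change ranged from 2.78 to 5.38. The sum of the 5 biliary markers was 80.4 to 109 CPM in wild type and 122 to 312 CPM in knockout. Of the 5, 2 (Krt19 and Epcam) passed, or 40% higher beside 9.8% of all genes. Most of this biliary sum was Spp1 and Sox9, which did not pass (adjusted p = 0.0519 and 0.367 in edgeR). Spp1 alone measured 62.9 to 73.1 CPM in wild type and 80.8 to 254 CPM in knockout. The 6 plasma cell markers summed to 180 to 397 CPM in wild type and 328 to 372 CPM in knockout, so the groups overlapped. Sdc1, which hepatocytes also make, made up most of that sum and did not pass (log2 fold change 0.10, adjusted p = 0.825). Without Sdc1, left out after its values were seen, Igha, Igkc, Jchain, Mzb1 and Tnfrsf17 summed to 0.897 to 2.01 CPM in wild type and 34.7 to 52.0 CPM in knockout. Tnfrsf17, a receptor of mature plasma cells, was at 0 in all wild-type libraries and at 0 or 1 count in each knockout library. The part of either cell type in the Ccl28 result was not tested.

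Ccl24, an eosinophil attractant made by macrophages, and Ccl25, the Ccr9 ligand of thymus and gut, did not pass. Ccl24 measured 1.90, 0.589 and 1.44 CPM in wild type and 0.891, 1.02 and 0.589 CPM in knockout, so the groups overlapped (log2 fold change -0.65, interval -1.70 to 0.39). Ccl25 measured 1.90, 3.18 and 2.53 CPM against 2.49, 3.09 and 3.09 CPM (log2 fold change 0.19, interval -0.39 to 0.77). Ccl25 shares 2.74% of its exon bases with Elavl1 on the opposite strand. Ccl19, the lymph node ligand of Ccr7, had 9 to 22 counts per wild-type and 10 to 23 per knockout library, and 58.8% of the 31-base words of its transcripts also occur in Gm2564, so its counts are uncertain.

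The Cxcr2 ligands are CXC chemokines that recruit neutrophils. Cxcl2 and Cxcl5 passed, and Cxcl1 and Cxcl3 did not. Cxcl2 measured 5.98, 2.31 and 0.611 CPM in wild type and 14.9, 16.4 and 22.7 CPM in knockout. The wild-type libraries of Cxcl2 were widely spread, with WT 1 high and WT 3 low, yet all lay below the knockout libraries. Its log2 fold change was 2.60 ± 0.67 (adjusted p = 0.0370), and it did not pass without WT 2 or without any 1 of the knockout libraries (adjusted p up to 0.112), nor with no low-count filter (adjusted p = 0.151). Its log2 fold change was 3.61 without WT 1 and 2.12 without WT 3, the extremes when each library was left out. Cxcl5, in liver known from epithelium and stellate cells, measured 0.276, 0.615 and 0.139 CPM in wild type and 2.29, 1.37 and 5.59 CPM in knockout (log2 fold change 3.15 ± 0.68, adjusted p = 0.0191). Among the called members, KO 3 was the highest library for Cxcl5, Ccl2, Ccl7, Cxcl2, Ccl3, Ccl28 and Cxcl11. KO 2 was the highest for Ccl4, Cxcl10, Ackr2 and Ccrl2. The call of Cxcl5 was lost when WT 1 or KO 1 was left out (highest adjusted p 0.0622). Its log2 fold change was 3.88 without WT 2 and 2.39 without KO 3, the extremes when each library was left out.

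Cxcl1, also known as KC and made by hepatocytes under stress, had the highest level per kilobase of the 30 ligands. Its levels were 111, 326 and 255 CPM in wild type and 406, 373 and 361 CPM in knockout. Every knockout library was above every wild-type library, but WT 1 lay far below WT 2, and the log2 fold change of 0.72 had a 95% interval of -0.09 to 1.53 (adjusted p = 0.180). Cxcl3 measured 1.24, 0.564 and 0.0278 CPM in wild type and 2.11, 1.07 and 3.74 CPM in knockout, with overlapping groups and an interval of -0.13 to 3.97. Cxcl2 and Cxcl3 have similar transcripts, and 7.59% of the 31-base words of Cxcl2 also occur in Cxcl3. The ELR-type ligands Cxcl5, Cxcl3, Cxcl1 and Cxcl2 and the platelet chemokine Pf4 lie together on chromosome 5 between 90759360 and 90905938, so called and uncalled genes are neighbours there.

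The Cxcr3 ligands are classic interferon-gamma targets that attract activated T and NK cells. Cxcl10 had the largest called fold change among the 34 members. It measured 3.75, 6.89 and 2.25 CPM in wild type and 47.2, 64.9 and 42.9 CPM in knockout (log2 fold change 3.58 ± 0.40, adjusted p = 0.00338). The lowest knockout library was several times above the highest wild-type library, and the call held without each library in turn (adjusted p up to 0.0211). Cxcl11 measured 1.13, 0.717 and 2.22 CPM in wild type and 3.61, 2.69 and 6.41 CPM in knockout (log2 fold change 1.65 ± 0.47, adjusted p = 0.0442). WT 3 and KO 2 were close, and the call of Cxcl11 held only with WT 3 left out, being lost when each of the other libraries was omitted (highest adjusted p 0.123) or with library totals alone (adjusted p = 0.0679). GENCODE M21 annotates Cxcl11 as a polymorphic pseudogene, and 41.7% of its exon bases overlap the pseudogene Gm2673 on the other strand, which had 0 to 3 counts per library.

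Cxcl9, the remaining ligand of the Cxcr3 group, did not pass. It measured 6.56, 13.3 and 5.41 CPM in wild type and 15.04, 12.4 and 17.4 CPM in knockout, so WT 2 lay above KO 2 (log2 fold change 0.83, interval 0.07 to 1.58, adjusted p = 0.112). It passed in DESeq2 and without WT 2. The count of Cxcl10 per count of Cxcl9 was 0.571, 0.519 and 0.415 in WT 1 to WT 3 and 3.14, 5.23 and 2.48 in KO 1 to KO 3. This ratio, which needs no scaling, was chosen after the values had been seen and sets a called gene over an uncalled one. It did not overlap between the groups, and its mean on the log2 scale differed by 2.79. Its exact two-sided permutation p was 0.1, the smallest that 3 against 3 allows (adjusted p = 0.12 over 6 ratios). Because of how the pair was chosen, this p is not an independent test. The 3 genes lie between 92321347 and 92365485 on the minus strand of chromosome 5, where Cxcl10 is at chr5:92346638-92348889. Cxcl10 shares 5.91% of its exon bases with Art3 on the opposite strand, which had 13 to 47 counts per library.

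**Figure D2:**
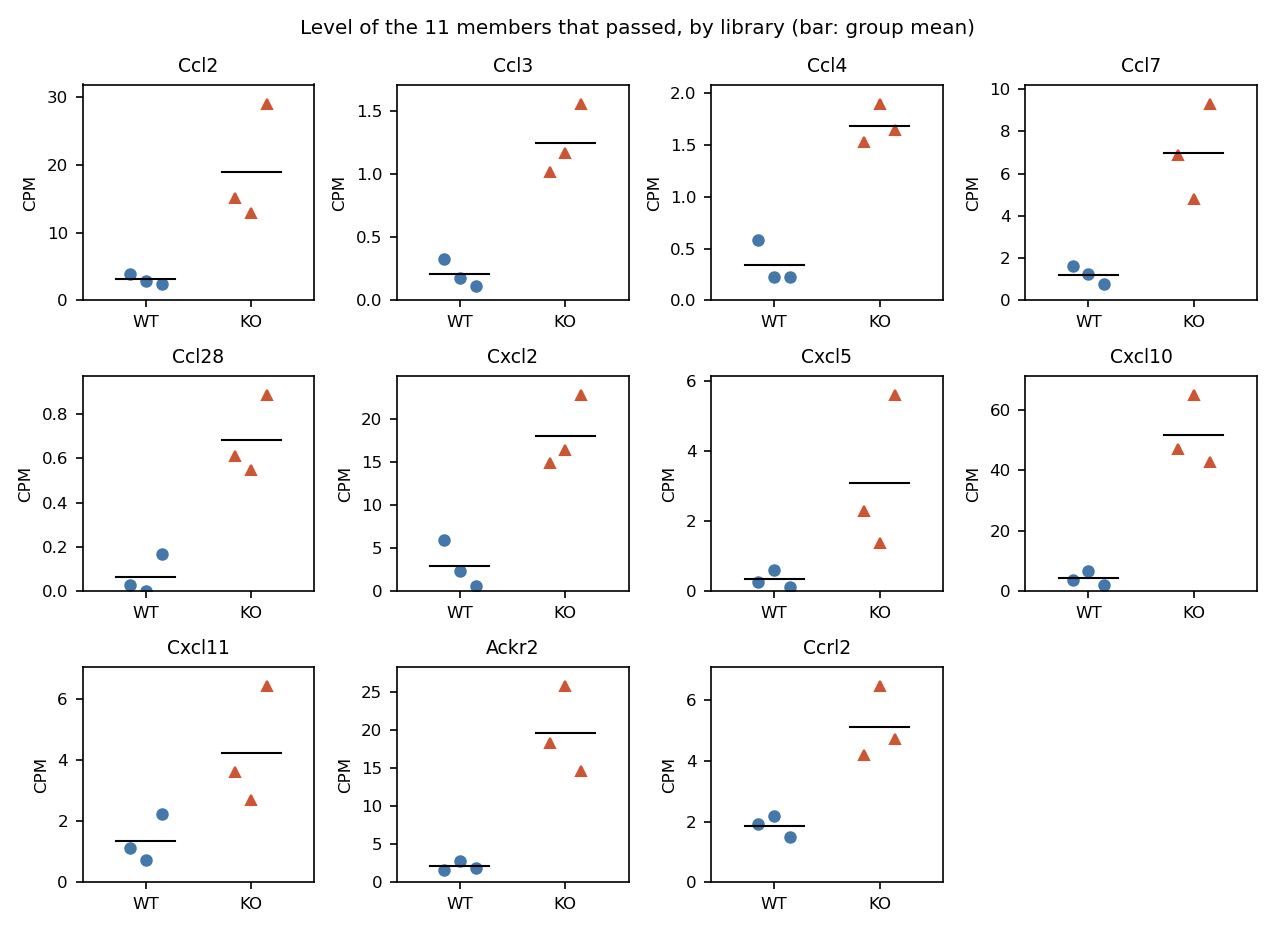
Level in CPM of the 11 members that passed, with 1 point per library (circles for wild type, triangles for knockout) and a bar at each group mean. No knockout library lies below a wild-type library in any panel, and as a ratio Cxcl11 has the narrowest gap, from 2.22 CPM in WT 3 to 2.69 CPM in KO 2.

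Promoter stretches of Cxcl10, Cxcl1, Cxcl2 and Cxcl3 are shown because Cxcl10 and the Cxcr2 ligands are textbook targets of NF-kappa-B. That of the receptor Ackr2 is shown further below. RefSeq promoter windows (GRCm38.p6) were at hand for 37 of the 48 members. The called ligands Ccl2, Ccl4, Ccl7, Cxcl5 and Cxcl11 had no window. The 250 bases before the start were searched on both strands for the kappa-B consensus, for the interferon-stimulated response core (GAAA, any 2 bases, GAAA) and for the AP-1 site TGANTCA. A kappa-B match was found in 4 of 6 called members with a window (Cxcl10, Cxcl2, Ackr2 and Ccrl2), in 4 of 20 that did not pass (Cxcl1, Cxcl3, Ccl9 and Ccr1) and in 2 of 11 too low to test. A member with more than 1 window was counted if any held a match, and for Ccrl2 only 1 of 3 windows did, while the share over all genes is per window. Of 32851 promoter windows of all genes, 7.25% held the kappa-B match, 2.98% the interferon core and 6.75% the AP-1 site. Cxcl10 was the only member with all 3 motifs. Its stretch from 220 to 61 bases before the start follows, with the motif matches in capitals. From left to right these are the interferon core, a kappa-B match, a run of 2 overlapping kappa-B matches and the AP-1 site.
Cxcl10 (chr5:92348950-92349109, minus strand): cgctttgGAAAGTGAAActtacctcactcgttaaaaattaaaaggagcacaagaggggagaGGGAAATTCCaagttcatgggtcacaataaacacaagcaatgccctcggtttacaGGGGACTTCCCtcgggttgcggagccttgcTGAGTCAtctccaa

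The promoters of Cxcl1, Cxcl2 and Cxcl3 share an unbroken run, GGGAATTTCCC, which holds 2 overlapping kappa-B matches and occurs on either strand in 14 of the 32851 windows (0.0426%). The run was picked as the longest shared by the stretches below, whose windows are among the 14, so its rarity is not a test result. It is in capitals in the stretches from 120 to 41 bases before each start.
Cxcl2 (chr5:90903779-90903858, plus strand): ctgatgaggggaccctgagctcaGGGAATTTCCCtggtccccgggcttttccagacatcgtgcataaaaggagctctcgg
Cxcl1 (chr5:90891125-90891204, plus strand): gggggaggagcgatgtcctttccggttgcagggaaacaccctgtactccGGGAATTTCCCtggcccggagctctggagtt
Cxcl3 (chr5:90785981-90786060, plus strand): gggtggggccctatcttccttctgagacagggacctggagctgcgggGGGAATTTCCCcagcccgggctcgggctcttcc
The same run thus stood before Cxcl2, which passed, and before Cxcl1 and Cxcl3, which did not. A match of letters shows neither binding nor use of a site.

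The homeostatic CXC ligands did not pass. Cxcl12, the ligand of Cxcr4 made by endothelium and stroma, measured 168, 93.5 and 220 CPM in wild type and 113, 105 and 143 CPM in knockout (log2 fold change -0.42, interval -1.09 to 0.26). WT 2 was below all knockout libraries and WT 1 and WT 3 were above them. Without WT 2, Cxcl12 was called lower (log2 fold change -0.69, adjusted p = 0.0354). Cxcl14 measured 14.5, 3.95 and 4.91 CPM in wild type and 5.12, 3.86 and 7.68 CPM in knockout, and its estimate of -0.48 turned to 0.32 without WT 1. Cxcl16, the membrane-bound ligand of Cxcr6, measured 7.14, 5.48 and 4.53 CPM against 6.41, 7.40 and 7.11 CPM (log2 fold change 0.29, interval -0.17 to 0.74), and 18.3% of its exon bases overlap Zmynd15 on the other strand. Pf4, Cxcl13 and the fractalkine gene Cx3cl1 had 11 to 67 counts per library and did not pass. For Pf4, a platelet product, all knockout libraries were above all wild-type libraries (0.573 ± 0.0706 CPM against 1.12 ± 0.145 CPM, SD, n = 3 per group, adjusted p = 0.0567). Among platelet markers, Gp9, Gp1bb, Gp1ba and Gp6 had at most 14 counts in a library, and the tested marker Itga2b did not pass.

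Levels of different genes were compared after division by the length of their annotated exons, as CPM per kilobase. On that scale Cxcl1 was the highest ligand in both groups, at 123 CPM per kilobase in wild type and 203 in knockout. In wild type the next were Cxcl12 (19.6), Ccl6 (13.2) and Ccl9 (12.5). In knockout the next were Cxcl10 (22.9), Ccl9 (17.4), Ccl2 (16.6) and Cxcl12 (14.7). The spread between libraries was wider than the steps among Cxcl12, Ccl6 and Ccl9 in wild type, so their order is not fixed by these data. In knockout the steps from Cxcl10 to Cxcl12 were likewise close to or within the spread between libraries, and in KO 3 Ccl2 (7.66% of the summed ligand level) was above Cxcl10 (5.75%). Of the 30 ligands, Cxcl10 had rank 8 in wild type and rank 2 in knockout, and Ccl2 had rank 7 and rank 4, by group means. Cxcl10 made up 0.502% to 1.33% of the summed ligand level per kilobase in wild-type libraries and 5.75% to 9% in knockout libraries. Cxcl1 made up 41.6%, 75.4% and 68.4% in WT 1 to WT 3 and 58.0% to 65.0% in knockout libraries.

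The signalling receptors did not pass, and their values are given beside markers of the leukocytes that carry them. Cxcr2, the neutrophil receptor, measured 9.45, 3.72 and 1.499 CPM in wild type and 7.30, 8.97 and 9.70 CPM in knockout (log2 fold change 0.83, interval -0.50 to 2.15, adjusted p = 0.339). WT 1 was within the knockout range, while WT 2 and WT 3 were below it. The 8 neutrophil markers summed to 1323, 1917 and 596 CPM in wild type and 970, 1010 and 752 CPM in knockout. Most of that sum was Lcn2, which hepatocytes also make, at 1197, 1874 and 577 CPM in wild type and 883, 887 and 642 CPM in knockout (log2 fold change -0.60, adjusted p = 0.311). Without Lcn2, left out after its values were seen, the other 7 summed to 126, 43.4 and 19.0 CPM in wild type and 86.3, 123 and 109 CPM in knockout. WT 1 was thus the highest and WT 3 the lowest wild-type library for Cxcr2 and for these 7, while the knockout libraries stood in different orders. None of the 8 neutrophil markers passed in edgeR, and 1 (Il1r2) had an unadjusted p under 0.05. Without WT 1, Cxcr2 passed (log2 fold change 1.72, adjusted p = 0.0360).

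Ccr2, the receptor of Ccl2 on inflammatory monocytes, measured 6.89, 3.33 and 1.89 CPM in wild type and 7.33, 7.80 and 11.2 CPM in knockout (log2 fold change 1.12, interval 0.11 to 2.14, adjusted p = 0.108). Ccr1, a receptor of Ccl3, Ccl6 and Ccl9 on myeloid cells, measured 5.92, 3.18 and 1.67 CPM against 6.77, 6.83 and 8.39 CPM (log2 fold change 1.03, interval 0.10 to 1.96, adjusted p = 0.107). In both genes the groups did not overlap, but WT 1 lay close to the knockout libraries. Both passed in DESeq2 and without WT 1. The 6 monocyte markers summed to 45.3, 26.5 and 12.3 CPM in wild type and 36.2, 39.9 and 51.2 CPM in knockout, with 0 of 6 passing and 0 at an unadjusted p under 0.05. By this sum WT 1 was above KO 1 and KO 2, largely through Chil3 (13.2 CPM in WT 1 against 4.91 and 7.58 CPM). For Ccr2 and Ccr1, WT 1 was below every knockout library. Cxcr4, the Cxcl12 receptor found on most leukocytes, measured 2.37, 0.999 and 0.500 CPM against 1.83, 2.89 and 2.17 CPM and passed only without WT 1 (log2 fold change 1.6, adjusted p = 0.0499). The part of leukocyte numbers in these receptor values was not tested.

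Cxcr6, which holds T and NK cells in the liver sinusoids, had 6 to 10 counts in wild-type and 17 to 26 counts in knockout libraries (adjusted p = 0.0583). The 8 T cell markers summed to 1.42 to 2.28 CPM in wild type and 4.91 to 5.58 CPM in knockout. Of the 6 tested, 2 (Cd3g and Trbc2) were called higher, or 33.3% beside 9.8% of all genes. Both were low in WT 1 to WT 3, with 5, 7 and 3 counts of Cd3g and 3, 6 and 6 of Trbc2. The 6 NK cell markers summed to 1.36 to 1.63 CPM in wild type and 1.84 to 2.02 CPM in knockout. Of the 3 NK cell markers tested 0 passed, with a median log2 fold change of 0.07, and Nkg7 had an unadjusted p of 0.0255 in edgeR. Cx3cr1, the fractalkine receptor of monocytes, measured 0.487 to 0.882 CPM and 0.814 to 1.62 CPM with overlapping groups. The 8 Kupffer cell markers overlapped between the groups, at 284 to 424 CPM in wild type and 177 to 321 CPM in knockout. C6, which hepatocytes also make, was left out after its values were seen. Without it the other 7 summed to 75.1 to 184 CPM in wild type and 36.1 to 49.4 CPM in knockout. Clec4f, Cd5l and Vsig4 were called lower, or 3 of the 8 beside 10.6% of all genes. The part of Kupffer cells in the chemokine values was not tested.

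**Figure D3:**
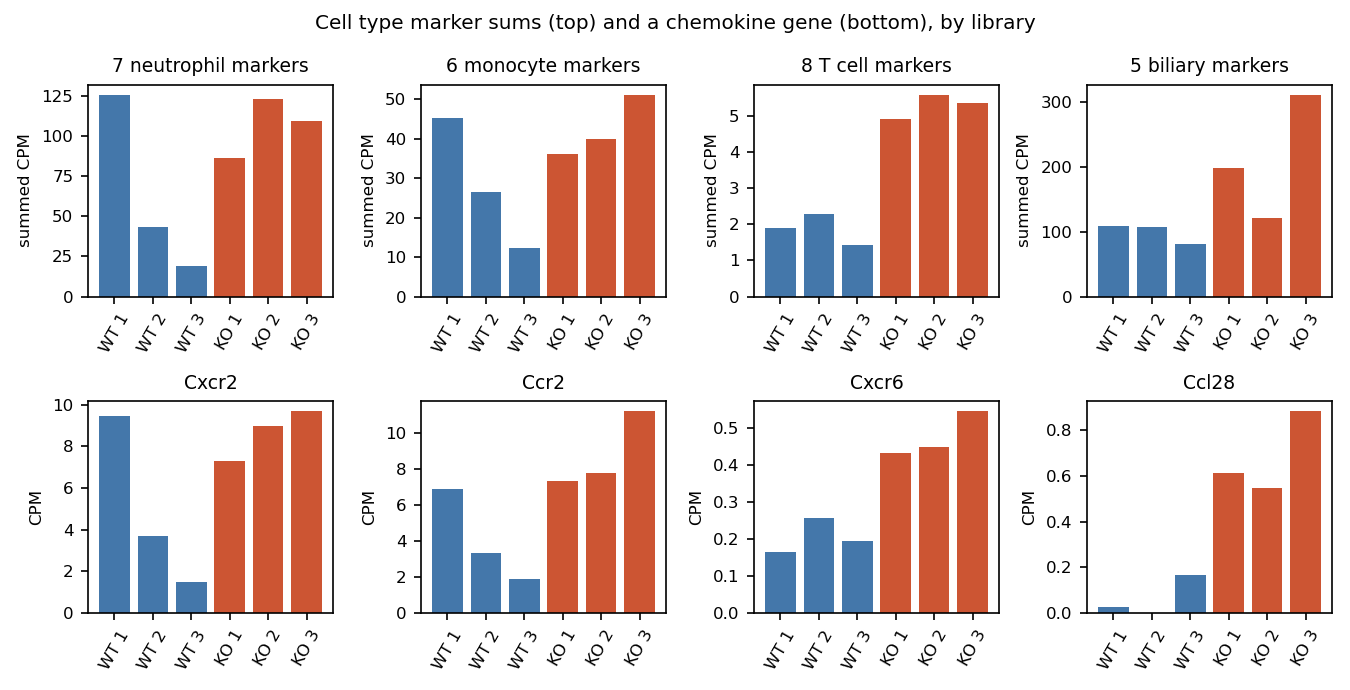
Summed CPM of cell type markers in each library (top row) above the CPM of a chemokine gene (bottom row), with wild-type bars in blue and knockout bars in red. The neutrophil markers are shown without Lcn2, which was left out after its values were seen. WT 1 is high and WT 3 low for these, for monocyte markers and for Cxcr2 and Ccr2. With Lcn2 the highest neutrophil sum was that of WT 2 (1917 CPM). T cell markers, Cxcr6 and Ccl28 are higher in every knockout library than in any wild-type library.

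Ratios of counts within a library set some ligands against receptors of the same leukocytes. There were 0.633, 0.621 and 0.407 counts of Cxcl2 per count of Cxcr2 in WT 1 to WT 3 and 2.04, 1.82 and 2.34 in KO 1 to KO 3. The ratio of Ccl2 to Ccr2 was 0.568, 0.877 and 1.29 in wild type and 2.06, 1.65 and 2.58 in knockout. The ratio of Ccl3 to Ccr1 was 0.0558, 0.0565 and 0.0667 against 0.150, 0.172 and 0.186. In all 3 the groups did not overlap, with log2 differences of 1.92, 1.25 and 1.503. The ratio of Cxcl1 to Cxcr2 overlapped, at 11.8, 87.8 and 170 in wild type and 55.6, 41.5 and 37.2 in knockout. The 6 ratios were chosen after the values had been seen, and all but Cxcl1 to Cxcr2 set a called gene over an uncalled one. Their exact two-sided permutation p was 0.1 for 5 of them and 0.9 for Cxcl1 to Cxcr2 (adjusted p = 0.12 and 0.9). Because of that choice these p-values are not an independent test.

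**Figure D4:**
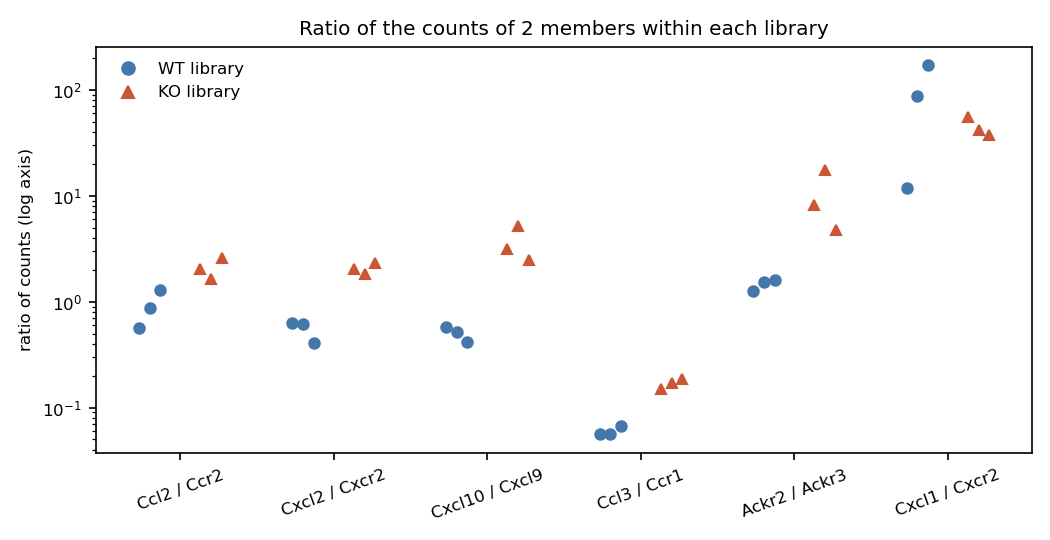
Ratio of the counts of 2 members within each library on a log axis, with circles for wild-type and triangles for knockout libraries. Knockout lies above wild type for Ccl2 to Ccr2, Cxcl2 to Cxcr2, Cxcl10 to Cxcl9, Ccl3 to Ccr1 and Ackr2 to Ackr3, and the groups overlap for Cxcl1 to Cxcr2.

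Ackr2 had the lowest p of all 34 members tested. It encodes a decoy receptor that takes up and degrades inflammatory CC chemokines, Ccl2, Ccl3, Ccl4 and Ccl7 among them. Its levels were 1.65, 2.84 and 1.94 CPM in wild type and 18.4, 25.8 and 14.7 CPM in knockout (log2 fold change 3.19 ± 0.28, adjusted p = 0.00136). The call held without each library in turn (adjusted p up to 0.00720). Per kilobase it had rank 5 of the 18 receptors in wild type and rank 1 in knockout (0.687 against 6.27 CPM per kilobase). The gene lies at chr9:121898355-121911074 on the plus strand, overlaps no annotated gene, and shares 0% of its 31-base words with other transcripts. Cyp8b1, a bile acid enzyme expressed strongly in liver, lies just beyond its end on the other strand. Cyp8b1 measured 103 ± 39.3 CPM and 161 ± 25.7 CPM (SD, n = 3 per group) and did not pass (adjusted p = 0.137).
The Ackr2 stretch from 230 to 51 bases before its start carries kappa-B matches, in capitals, at both ends.
Ackr2 (chr9:121898125-121898304, plus strand): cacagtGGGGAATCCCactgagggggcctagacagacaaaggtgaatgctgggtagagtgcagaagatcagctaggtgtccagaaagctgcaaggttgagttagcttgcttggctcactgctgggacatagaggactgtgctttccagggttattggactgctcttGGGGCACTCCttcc

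Ccrl2, which binds the attractant chemerin and displays it to other cells, was the other atypical receptor that passed. It measured 1.93, 2.18 and 1.499 CPM in wild type and 4.20, 6.46 and 4.71 CPM in knockout (log2 fold change 1.45 ± 0.25, adjusted p = 0.00961). Rarres2, which encodes chemerin, also rose, from 169 ± 19.4 CPM to 297 ± 57.5 CPM (log2 fold change 0.81 ± 0.17, adjusted p = 0.0177), and the signalling chemerin receptor Cmklr1 did not pass (-0.39, adjusted p = 0.459). Ackr3, a scavenger of Cxcl12 and Cxcl11, measured 1.32, 1.87 and 1.22 CPM against 2.27, 1.47 and 3.11 CPM and did not pass (log2 fold change 0.63, interval -0.15 to 1.41). Ackr2 thus had 1.25 to 1.59 counts per count of Ackr3 in wild type and 4.72 to 17.6 in knockout. Ackr1, the chemokine carrier of venules and red cells, measured 0.799, 0.410 and 0.333 CPM in wild type and 1.30, 0.798 and 1.64 CPM in knockout, so WT 1 and KO 2 overlapped (adjusted p = 0.0755). It passed in DESeq2. Ackr1 shares 25.7% of its exon bases with Cadm3 on the same strand, so reads of these genes may be confused. Cadm3 did not pass.

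The 14 members too low to judge were the ligands Ccl8, Ccl11, Ccl12, Ccl17, Ccl22 and Xcl1 and the receptors Ccr3, Ccr6, Ccr7, Ccr9, Cxcr3, Cxcr5, Xcr1 and Ackr4. Ccr6, the Ccl20 receptor, had 0 counts in all 6 libraries, and a count of 0 allows up to 3 counts in a library from counting error alone. Ccl17 had 0 to 3 counts. Ccl11, the eotaxin next to Ccl7, had 0, 2 and 0 counts in wild type and 6, 9 and 29 in knockout. With no low-count filter it passed (adjusted p = 0.0128), and it also passed in DESeq2. Its neighbours Ccl12 (0, 0 and 0 against 7, 1 and 1 counts) and Ccl8 (0, 1 and 0 against 6, 3 and 5 counts) had more counts in each knockout library than in any wild-type library but did not pass without the filter (adjusted p = 0.125 and 0.0927). The share of genes below the filter with such a gap was not counted, and every knockout library was deeper than every wild-type library. Ccl2 and Ccl7, in the same row of chromosome 11, also had groups that did not overlap.

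Cxcr3, the receptor of Cxcl10, had 0, 3 and 5 counts in wild type and 14, 20 and 7 in knockout (adjusted p = 0.0872 without the filter). Ccr7, the homing receptor of lymph nodes, had 3 to 5 and 8 to 19 counts. Ccr3, the eosinophil receptor of Ccl11 and Ccl24, was the reverse, with 7, 12 and 6 counts in wild type and 0, 5 and 0 in knockout (adjusted p = 0.130 without the filter). The remaining low members, Ccl22, Xcl1, Ccr9, Cxcr5, Xcr1 and Ackr4, had at most 15 counts in any library.

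**Figure D5:**
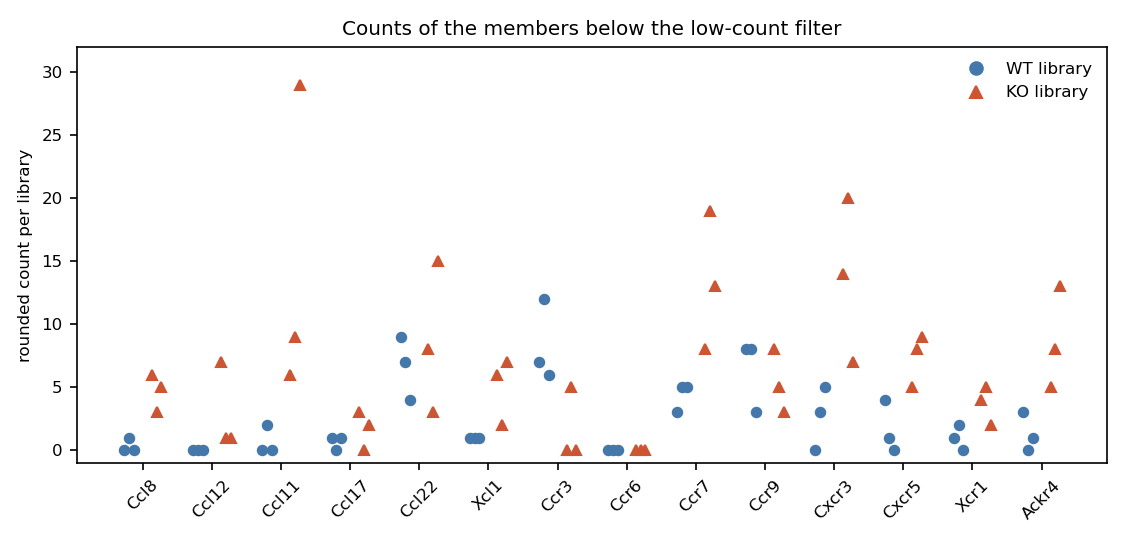
Rounded counts per library of the 14 members below the low-count filter, with circles for wild-type and triangles for knockout libraries. Ccl11 reaches 29 counts in KO 3, Ccr3 is higher in wild type, and Ccr6 is at 0 in every library.

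Genes that act around the chemokines were counted from lists of their inducers, signalling partners, proteases and surface anchors. Of the inducers and their transcription factors, 8 of 23 tested rose and 0 fell (34.8% higher, beside 9.8% higher and 10.6% lower of all genes), with a median log2 fold change of 0.36. The number that rose was 4 without KO 3, 5 without WT 1, 5 without WT 3 and 5 with the replicate number as a block. Among those with a mean log2 CPM of at least 0, the lowest p belonged to the NF-kappa-B feedback genes, with Nfkbiz at 2.08 ± 0.16 (adjusted p = 8.30e-04) and Nfkbia at 1.55 ± 0.15 (adjusted p = 0.00187). Rel, an NF-kappa-B subunit, rose by 1.504 ± 0.22 (adjusted p = 0.00550), and Irf1, a transcription factor of the interferon response, by 0.77 ± 0.17 (adjusted p = 0.0198). The largest change among the 8 was that of the cytokine gene Il6, with 5, 5 and 2 counts in wild type and 36, 33 and 73 in knockout (log2 fold change 3.31 ± 0.48, adjusted p = 0.00551). Tnf had 4 to 13 counts in wild-type and 19 to 44 in knockout libraries (adjusted p = 0.0503). Interferon-gamma (Ifng) was too low to test, with 0 counts in each wild-type library and 3, 12 and 22 in KO 1 to KO 3.

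Of 26 signal transduction genes, 2 rose and 1 fell, or 7.69% higher beside 9.8% of all genes, with a median of -0.13. The receptor kinase Grk5 rose (0.73 ± 0.17, adjusted p = 0.0239), as did the GTPase Rac1 (0.50 ± 0.14, adjusted p = 0.0425), and the receptor kinase Grk3 had a log2 fold change of -1.28 ± 0.30 (adjusted p = 0.0240). The number that rose was 0 with the replicate block and without WT 3, KO 1 or KO 3. The number that fell was 0 with the block and without WT 1, WT 3 or KO 1, and 3 without WT 2. Of the 15 proteoglycan genes that hold chemokines on cell surfaces, 2 rose and 1 fell, with a median of 0.215. That is 13.3% higher, beside 9.8% higher and 10.6% lower of all genes. The 2 that rose were Glce (0.44) and Ext1 (0.55), both enzymes of heparan sulfate synthesis, and DESeq2 called 6 higher. The syndecan Sdc3 fell by 0.93 (adjusted p = 0.0368). The number that rose was 0 without KO 1 or KO 2 and 1 with the block and without WT 3 or KO 3. The number that fell was 1 without WT 2 and 0 with the block, in limma voom and without each of the other libraries. None of the 11 chemokine-processing proteases tested passed in edgeR, and DESeq2 called 1 lower, as did edgeR without WT 2 or WT 3. At an unadjusted p under 0.05, 2 of the 11 were lower, the aminopeptidase Anpep (-0.56) and the sheddase Adam17 (-0.45). In the other chemokine family genes, Rarres2 was the only 1 of 5 tested that passed, or 20% higher beside 9.8% of all genes. The number that rose was 0 without KO 1, and 2 in DESeq2, in limma voom and without WT 1. Ppbp did not pass (log2 fold change 1.51, adjusted p = 0.0978 in edgeR), although its groups did not overlap.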

How the data were processed

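The deposited table holds expected counts: estimated values for each gene, 8.38% to 9.32% of them not whole. Per the submitters' processing notes, the tools were Trim Galore, STAR and Salmon and the build was GRCm38. For tool versions and the annotation, the sources used here give nothing. Per the labels' protocols, RNA was poly(A)-enriched and libraries were made with a NEBNext Ultra II kit, with no mention of strand. Libraries were grouped by title, and none was left out.

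Counts were rounded to whole numbers. Symbols came from a gene name table (45143 of 45706 matched), and positions, exon lengths and shared 31-base words from GENCODE M21 (GRCm38). filterByExpr left 14069 genes, scaled by TMM. edgeR 4.0.16 (R 4.3.3) ran robust quasi-likelihood F-tests with genotype as the only term, p-values adjusted by Benjamini-Hochberg across all tested genes and a threshold of 0.05. The standard error is the fold change on the log2 scale over the root of F, and 95% intervals use it with the fitted degrees of freedom. Alternatives were DESeq2 1.42.0, limma 3.58.1 (voom), other scalings, filters and thresholds, a replicate block, and leaving out each library or the mitochondrial and hemoglobin genes. The fit was tested on simulated data. Intervals and the floor of 3 counts cover counting error or library spread only.

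Same-group libraries differed by 34.1 to 139 times counting noise per gene, so none was counted as a duplicate. The genes, lists and tests were chosen with earlier results of these data known. Each member that passed, or whose mean log2 CPM was at least 0, was named with its value in every library, and the others by counts, ranges or group means. Ackr1, below that mean, was given by library because its groups overlapped in CPM and not in counts. From each pathway list at most 4 genes were named, by lowest p at that same mean. Tnf, Ifng, Il6, low cell type markers, genes overlapping members, and the marker sums without Lcn2, C6 or Sdc1 were chosen after their values were seen. Figures used matplotlib 3.10.9.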

Additional observations from a re-analysis of the deposited data

How the results depend on the processing

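The number of members higher in knockout was 11, and it was 17 in DESeq2, 7 to 12 without each library in turn and 9 to 16 under the other alternatives. The number lower was 0, and 0 to 1 without each library (Cxcl12 without WT 2). Over all genes 1379 were higher, against 385 to 1390 without each library, 1869 in DESeq2 and 1989 at a threshold of 0.1. In the other direction 1492 were lower, against 218 to 1690 without each library, 1704 in DESeq2 and 2249 at a threshold of 0.1. Of the 11 called members, 7 (Ccl2, Ccl3, Ccl4, Ccl7, Cxcl10, Ackr2 and Ccrl2) passed without each library. Ccl3 and Ccl28 were not tested under a minimum of 1 CPM in 3 libraries. Leaving out 1 library turned the estimates of some uncalled genes. Over these settings Ccl6 ran from -0.43 to 0.276 (positive without WT 1), Cxcl14 from -0.803 to 0.322 (positive without WT 1), Ccl19 from -0.231 to 0.541 (negative without WT 2, WT 3 or KO 2) and Cxcl13 from -0.019 to 0.361 (negative without WT 3). The Cxcl1 to Cxcr2 log2 ratio, -0.343 with all libraries, ran from -1.469 to 0.458 (positive without WT 3). The cause was not tested.

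Replicate numbers are shared by both groups, but same-numbered libraries did not deviate together (r = -0.08, 0.01 and -0.09 across genes). With the replicate number as a block, 9 members passed (without Cxcl2 and Cxcl5, adjusted p = 0.0689 for Cxcl5), with 807 genes higher and 661 lower in all. Counts under 10 in at least 1 library limit the tested members Ccl3, Ccl4, Ccl19, Ccl28, Cxcl3, Cxcl5 and Cxcr6 and the 14 members below the filter.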
